A study of Mus musculus with 4 samples.

Results

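Genes of the vessel wall and of vessel growth were followed in mouse heart RNA-seq, 10 in all: *Pecam1*, *Cdh5*, *Emcn*, *Vwf*, *Kdr*, *Flt1*, *Tek*, *Tie1*, *Vegfa* and *Angpt1*. They were taken by symbol, 10 of 23337 symbols listed, by a rule that uses no measured value but was written with earlier results of these data known. All 10 passed the minimum of 10 reads in every comparison. PIMT, a methyltransferase encoded by *Tgs1*, was deleted in cardiomyocytes, and hearts were compared with controls at 2 and at 6 months of age. Controls were PIMTfl/fl mice, whose PIMT alleles carry loxP sites around exons 3 and 4. The csPIMT-/- mice carried the same alleles and Cre recombinase under the α-MyHC promoter, which is active in cardiomyocytes, so the gene was not targeted in endothelial cells. All mice were labelled C57BL6/J. Each of the 4 libraries held pooled RNA of 5 hearts, male and female together, so each group had 1 library and no difference at a single age has a replicate check. None of the 4 libraries carried Cre without the floxed alleles.

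Endothelial cells line every vessel and are joined by adhesion molecules, among them PECAM1 and VE-cadherin. VEGF-A, made in the heart largely by cardiomyocytes, acts on VEGF receptors of endothelial cells to drive their growth and survival. Angiopoietin 1, made by cells around the vessel, activates the receptor TIE2 and keeps vessels quiet and tight. The heart holds a dense capillary bed, so endothelial RNA is a regular part of a whole-heart library.

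The promoters of *Kdr*, *Flt1* and *Tek* are shown because these receptors are made by the same cell type. The ratios of *Flt1* differed from those of *Kdr* and *Tek*, which were close to each other. RefSeq sequences of the GRCm38.p6 build were found for 6 of the 10 genes, in 7 windows, and none was found for *Pecam1*, *Cdh5*, *Vwf* and *Angpt1*. Each line gives the 250 bases before the start of transcription, 5′ to 3′ on the strand of the gene. Capitals mark GGAAG, the core of ETS factor sites, or its reverse complement CTTCC. The *Kdr* window is chr5:75978456-75978705 (minus strand), that of *Flt1* is chr5:147726012-147726261 (minus strand) and that of *Tek* is chr4:94739039-94739288 (plus strand).
Kdr: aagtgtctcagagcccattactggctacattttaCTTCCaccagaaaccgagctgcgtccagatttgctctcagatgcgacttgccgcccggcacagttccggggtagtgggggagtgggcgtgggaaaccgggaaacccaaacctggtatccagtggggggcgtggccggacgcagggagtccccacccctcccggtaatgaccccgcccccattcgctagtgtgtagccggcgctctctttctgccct
Flt1: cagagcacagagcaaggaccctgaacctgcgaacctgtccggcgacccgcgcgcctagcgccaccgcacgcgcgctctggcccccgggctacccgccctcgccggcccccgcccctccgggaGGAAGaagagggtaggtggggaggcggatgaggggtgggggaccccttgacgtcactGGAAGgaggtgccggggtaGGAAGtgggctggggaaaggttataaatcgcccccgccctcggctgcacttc
Tek: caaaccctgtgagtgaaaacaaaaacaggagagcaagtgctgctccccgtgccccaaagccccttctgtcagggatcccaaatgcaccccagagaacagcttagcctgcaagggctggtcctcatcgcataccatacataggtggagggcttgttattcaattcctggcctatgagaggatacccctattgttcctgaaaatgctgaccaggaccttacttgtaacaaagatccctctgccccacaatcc
*Flt1* held 3 matches, *Kdr* 1 and *Tek* 0. Over the full windows of 300 bases, *Tie1* held 7, *Emcn* 2, and the windows of *Vegfa* 1 and 2. At least 1 match occurred in 71.1% of 27025 windows of all genes, and at least 2 in 37.8%. ACGTG (or CACGT), the core of hypoxia response elements, occurred once in the second *Vegfa* window and in none of the other 6, against 19.7% of all windows. That window (chr17:46025114-46025413) lies inside the *Vegfa* gene (46016993 to 46032369). The bases after its start did not match the searched part of a GENCODE M21 transcript of the gene, so it was not shown to be a promoter. These matches are descriptions of the sequence only.

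Libraries held 29823073 to 40705783 reads. *Tgs1* was at 579.8 normalized counts in the 2-month control and 160.3 in the csPIMT-/- library of that age, and at 816.2 and 162.3 at 6 months. Normalized counts are the deposited values, scaled by the authors to make libraries comparable. Markers of other tissue differed among libraries. The summed level of 5 atrial markers was 40742 in the 2-month control and 121253 to 349424 in the others, and *Bmp10*, an atrial gene, was at 5.19 there and at 1079 to 8564 elsewhere. The 7 lung epithelium markers summed to 1228 in the 2-month csPIMT-/- library and to 5.19 to 20.8 in the others, with 5 of the 7 at 0 in the 2-month control, 3 in the 6-month control and 0 in both csPIMT-/- libraries. The 8 leukocyte markers summed to 5476 and 11474 in the controls of 2 and 6 months, and to 12587 and 17521 in the csPIMT-/- libraries. The 6 platelet markers summed to 1198 and 1565 in the controls of 2 and 6 months and to 1667 and 2051 in the csPIMT-/- libraries, the 8 fibroblast markers to 147589 to 276160, and the 5 fat markers to 7771 in the 2-month csPIMT-/- library and 1902 to 3051 elsewhere. The 4 red blood cell markers summed to 13298 in the 6-month csPIMT-/- library and to 2396 to 4398 elsewhere, with the globin genes *Hba-a1* and *Hba-a2* at 0 in every library. *Xist*, of females, was at 805 in the 2-month control and 6369 to 25639 in the others, and *Uty*, of the Y chromosome, at 2254 there and 87.5 to 299.9 in the others. The 2-month control therefore stands apart in atrial and sex markers, and the 2-month csPIMT-/- library in lung and fat markers, and the 6-month csPIMT-/- library in red blood cell markers. Their part in the results was not tested.

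Endothelial genes did not move as a block. At 2 months 4 of the 10 genes were past 2-fold lower in csPIMT-/- hearts (*Kdr*, *Tek*, *Vegfa* and *Angpt1*), where 22.5% of all genes compared were, and 1 was past 2-fold higher (*Vwf*), against 17.3% (39.7% in either direction). At 6 months 2 were past 2-fold lower (*Emcn* and *Angpt1*), against 24.9%, and *Vwf* alone was past 2-fold higher, against 16.9% (41.9% in either direction). The median ratio of csPIMT-/- over control was 0.629 over the 10 genes at 2 months and 0.932 at 6 months, and over all genes 0.999 and 1.003. Over the 8 endothelial genes, *Vegfa* and *Angpt1* left out, it was 0.749 and 1.27. In whole tissue, fewer cells of a type and less RNA per cell cannot be told apart.

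**Figure D1:**
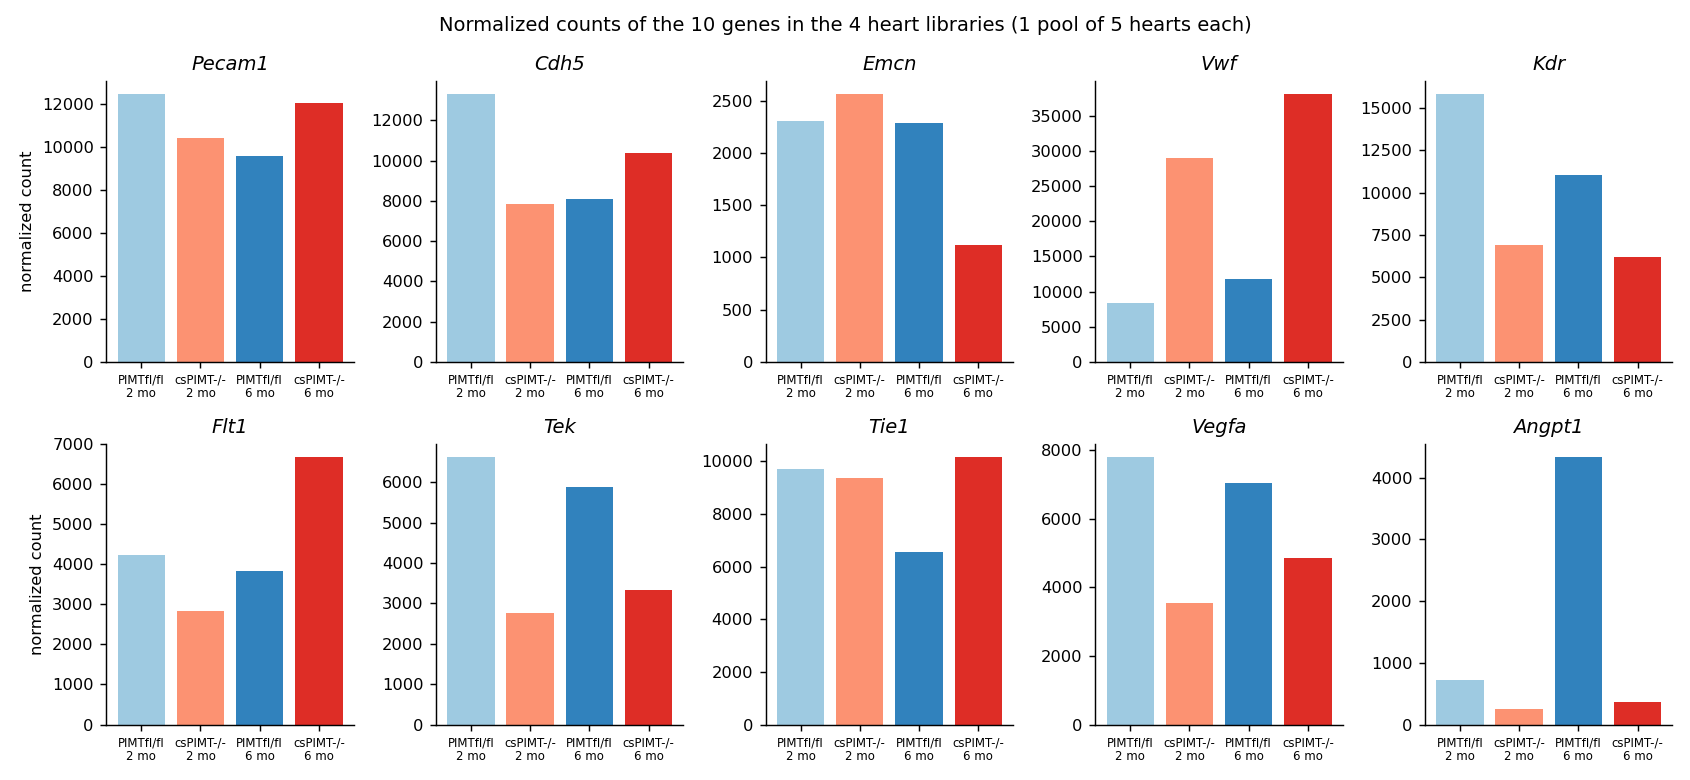
Normalized counts of each gene in the 4 libraries, each panel with its own axis from 0; each bar is 1 pool of 5 hearts and there are no error bars because there are no replicates. *Vwf* is high in both csPIMT-/- libraries, *Kdr*, *Tek* and *Vegfa* are low in both, and *Angpt1* is high only in the 6-month control.

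*Vwf* (chromosome 6, 125546774 to 125686679, plus strand; GRCm38, GENCODE M21) encodes von Willebrand factor, the glycoprotein that endothelial cells store and release for platelet adhesion, and that megakaryocytes also make. It stood at 8432 normalized counts in the 2-month control and 28977 in the csPIMT-/- library of that age, then at 11737 and 38052 at 6 months. Both csPIMT-/- libraries lay above both controls, and so did their summed platelet markers (1667 and 2051 against 1198 and 1565), whose part in the result was not tested. The share of all genes that split by genotype in this way is not given here. Such splits, here and below, are therefore descriptions only. The ratio of csPIMT-/- over control was 3.44 (95% interval 3.36 to 3.52) at 2 months and 3.24 (3.18 to 3.31) at 6 months. These intervals are exact for the 2 read counts and hold counting error only, since PCR reads are not independent molecules and hearts were pooled. Fitted over both ages with limma, *Vwf* rose by 1.74 on the log2 scale (SE 0.210, adjusted p = 0.0157).

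*Kdr* (chromosome 5, 75932827 to 75978458, minus strand) encodes VEGFR2, the main signalling receptor for VEGF-A. Its level was 15793 in the 2-month control, 6878 in the csPIMT-/- library of that age, 11015 in the 6-month control and 6164 in the 6-month csPIMT-/- library. Both csPIMT-/- libraries lay below both controls, with ratios of 0.436 (0.423 to 0.449) and 0.56 (0.542 to 0.577). *Tek* (chromosome 4, 94739289 to 94874976, plus strand) encodes TIE2, the receptor of the angiopoietins. It was at 6623 and 5886 in the controls of 2 and 6 months and at 2758 and 3333 in the csPIMT-/- libraries, again without overlap. Its ratios were 0.416 (0.397 to 0.437) at 2 months and 0.566 (0.543 to 0.591) at 6 months. Over both ages limma gave a fall of *Kdr* by 1.02 on the log2 scale (SE 0.214, adjusted p = 0.0294). *Tek* fell by 1.04 on that scale (SE 0.220, adjusted p = 0.0296 by limma).

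*Angpt1* (chromosome 15, 42424723 to 42676977, minus strand), the ligand of TIE2, ranged most widely of the 10 genes. It was at 719.9 normalized counts (832 reads) in the 2-month control and 4335 (4929 reads) in the 6-month control. In csPIMT-/- hearts it was at 252 (204 reads) and 371.4 (357 reads). Both csPIMT-/- libraries lay below both controls, but the controls differed from each other 6.02-fold (5.59 to 6.49), more than the genotypes did at 2 months, where the ratio was 0.349 (0.298 to 0.408). At 6 months it was 0.0857 (0.0767 to 0.0954), the lowest of the 10 genes. Against the control of the other age, the ratio was 0.516 for the 6-month csPIMT-/- library and 0.058 for that of 2 months. Over both ages limma gave a fall of 2.53 on the log2 scale (SE 0.512, adjusted p = 0.0273). With all 4 libraries and no age term, the same difference did not pass limma (adjusted p = 0.0557).

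*Vegfa* (chromosome 17, 46016993 to 46032369, minus strand), the principal growth factor for endothelium, was at 7799 and 7053 in the controls of 2 and 6 months, and at 3541 and 4853 in the csPIMT-/- libraries, which lay below both controls. Its ratios were 0.454 (0.435 to 0.474) and 0.688 (0.664 to 0.713). Over both ages its log2 difference was -0.84 (SE 0.237), which did not pass with limma (adjusted p = 0.054). With TMM scaling the limma fit gave an adjusted p of 0.042, with the GC trend subtracted 0.11 and with no mean trend 0.138. The edgeR quasi-likelihood test gave an adjusted p of 0.0592 and the DESeq2 Wald test 0.0282.

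The remaining 5 genes lay on one side of the control at 2 months and on the other at 6 months. *Pecam1*, which joins endothelial cells and is also made by leukocytes and platelets, was at 12451 and 10444 in control and csPIMT-/- hearts at 2 months and at 9562 and 12059 at 6 months. The summed leukocyte markers, at 5476 and 12587, then at 11474 and 17521, were higher in the csPIMT-/- library at both ages, and their part in its level was not tested. *Cdh5*, which encodes VE-cadherin, was at 13292 and 7865, then at 8088 and 10374. *Tie1*, an orphan receptor that pairs with TIE2, was at 9704 and 9350.4, then at 6561 and 10158. In these 3 genes the csPIMT-/- library was the lower at 2 months and the higher at 6 months. *Flt1* encodes VEGFR1, which binds VEGF-A tightly and signals weakly. It was at 4230.4 and 2832, then at 3836 and 6672. *Emcn*, a sialomucin of capillaries and veins, went the other way, from 2304 and 2562 to 2284 and 1115.

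The ratios at 2 and 6 months were 0.839 (0.817 to 0.862) and 1.26 (1.23 to 1.29) for *Pecam1*, and 0.592 (0.575 to 0.609) and 1.28 (1.25 to 1.32) for *Cdh5*. They were 0.669 (0.637 to 0.704) and 1.74 (1.67 to 1.81) for *Flt1* and 0.964 (0.936 to 0.992) and 1.55 (1.5 to 1.6) for *Tie1*. For *Emcn* they were 1.11 (1.05 to 1.18) and 0.488 (0.454 to 0.525). Against the control of the other age, the ratios were 1.09 and 0.969 for *Pecam1*, 0.972 and 0.781 for *Cdh5*, and 1.43 and 1.05 for *Tie1*, so the side on which these 3 genes lay at 2 or 6 months depended on the control library for *Pecam1* and *Tie1* at 2 months and for *Pecam1* and *Cdh5* at 6 months. With the GC trend described below subtracted, *Cdh5* (0.482 and 0.989), *Tie1* (0.6 and 0.95) and *Emcn* (2.71 and 1.33) lay on the same side of 1 at both ages. *Pecam1* (0.816 and 1.18) and *Flt1* (0.636 and 1.58) did not. Whether the ages differ in these ratios was not tested, as each rests on 1 library a group. In the fit of all 4 libraries, none of the 5 passed limma over both ages, where the log2 differences ran from -0.44 (*Emcn*, SE 0.335, adjusted p = 0.353) to 0.29 (*Tie1*, SE 0.25, adjusted p = 0.41). Without the 2-month csPIMT-/- library and with no age term, *Emcn* passed limma at -1.04 (adjusted p = 0.0413).

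**Figure D2:**
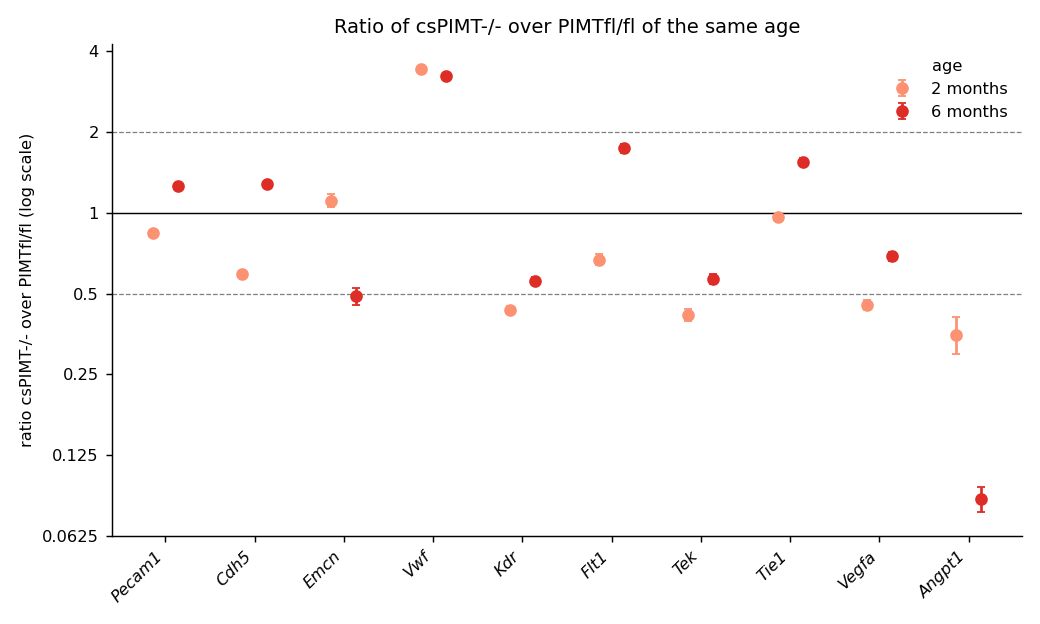
Ratio of csPIMT-/- over PIMTfl/fl of the same age for each gene, on a log axis, at 2 months (light) and 6 months (dark). Error bars are 95% intervals of counting error and dashed lines mark 2-fold; *Vwf* lies at 3.44 and 3.24, while *Kdr*, *Tek*, *Vegfa* and *Angpt1* lie below 1 at both ages.

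Over both ages, limma was fitted to 14933 genes and called 2606 lower (17.5%) and 1644 higher (11.0%) at an adjusted p under 0.05, 28.5% in all. Of the 10 genes, 3 fell (*Kdr*, *Tek* and *Angpt1*) and 1 rose (*Vwf*), so the number of calls is close to the background and is not a result about these genes. Leaving out the 2-month control, and with no age term, limma gave *Vwf* 1.5 (adjusted p = 0.0408), *Kdr* -0.76 (adjusted p = 0.15), *Tek* -0.96 (adjusted p = 0.0962) and *Angpt1* -3.82 (adjusted p = 0.0237). Leaving out the 2-month csPIMT-/- library gave *Vwf* 1.94 (adjusted p = 0.0313), *Kdr* -1.10 (adjusted p = 0.057), *Tek* -0.91 (adjusted p = 0.0467) and *Angpt1* -2.25 (adjusted p = 0.175). Leaving out the 6-month control, limma gave *Kdr* -1.28 (adjusted p = 0.0565), *Tek* -1.13 (adjusted p = 0.074) and *Angpt1* -1.23 (adjusted p = 0.132). Without the 6-month csPIMT-/- library, limma gave *Kdr* -0.94 (adjusted p = 0.0768), *Tek* -1.18 (adjusted p = 0.0343), *Angpt1* -2.81 (adjusted p = 0.118) and *Vegfa* -1.07 (adjusted p = 0.0377). *Vwf* passed in all 4 of these fits.

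Reads of one gene over those of another in the same library need no scaling. *Kdr* over *Flt1*, the receptors that share VEGF-A, stood at 3.73 (3.62 to 3.85) in the 2-month control, 2.87 (2.77 to 2.97) in the 6-month control, 2.43 (2.31 to 2.55) in the 2-month csPIMT-/- library and 0.924 (0.892 to 0.957) in that of 6 months. *Tie1* over *Tek* was 1.47 and 1.11 in the controls and 3.39 and 3.05 in the csPIMT-/- libraries. *Vwf* over *Pecam1* was 0.677 and 1.23 in the controls and 2.77 and 3.16 in the csPIMT-/- libraries. For these 3 pairs, the csPIMT-/- libraries lay on one side of both controls. The pairs are not corrected for the GC content of the transcripts. With the GC trend described below subtracted, ratios of csPIMT-/- over control at 2 and 6 months were 0.6 and 0.95 for *Tie1* and 0.546 and 0.762 for *Tek*. They were 0.455 and 0.57 for *Kdr* and 0.636 and 1.58 for *Flt1*. For *Vwf* they were 2.19 and 2.04, and for *Pecam1* 0.816 and 1.18.

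*Kdr* over *Pecam1* was 1.27 and 1.15 in the controls and 0.659 and 0.511 in csPIMT-/- hearts, and *Tek* over *Pecam1* was 0.532 and 0.616 against 0.264 and 0.276. *Emcn* over *Pecam1* did not split by genotype, with 0.185 and 0.239 in the controls and 0.245 and 0.0925 in the csPIMT-/- libraries. *Angpt1* over *Angpt2*, which encodes the ligand that competes with angiopoietin 1, was 22 in the 6-month control and 2.06 to 3.31 in the other 3 libraries.

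**Figure D3:**
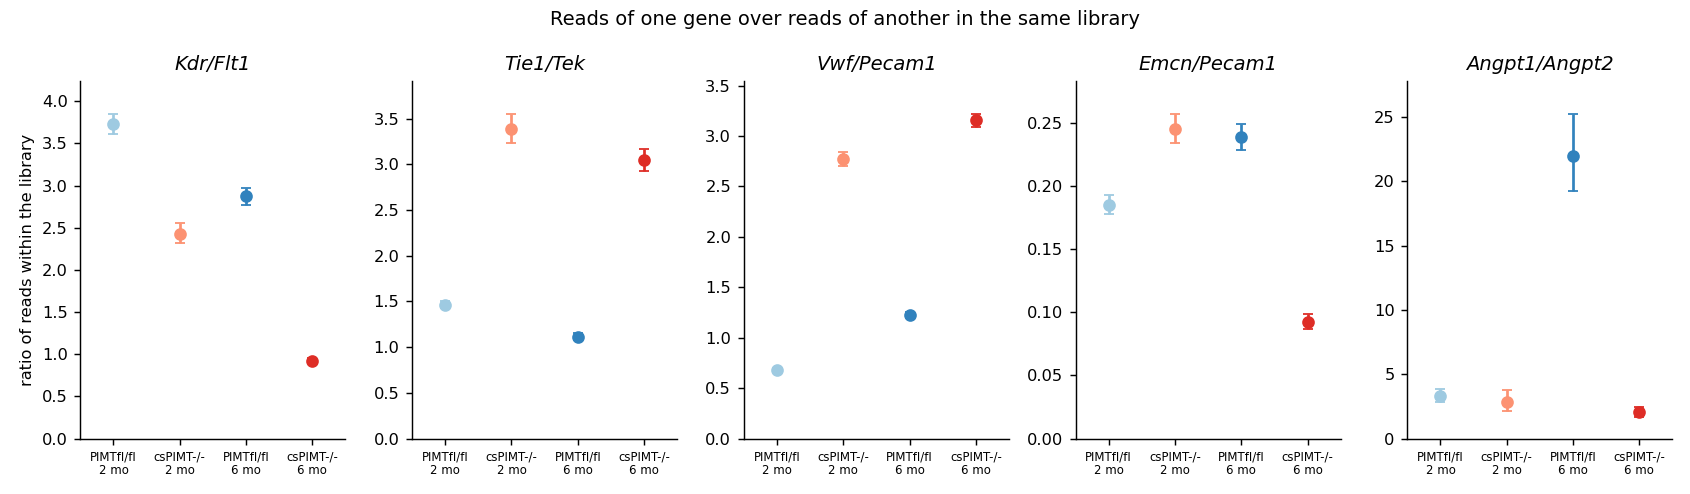
Reads of one gene over reads of another in the same library, not corrected for GC content, with 95% intervals of counting error. *Tie1*/*Tek* and *Vwf*/*Pecam1* are higher in both csPIMT-/- libraries than in both controls, *Kdr*/*Flt1* is lower, *Emcn*/*Pecam1* does not split by genotype and *Angpt1*/*Angpt2* is high only in the 6-month control.

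Per kilobase of the longest transcript, *Pecam1* was the most abundant of the 10 genes in both controls, with 3618 and 2779 normalized counts per kb. *Vwf* was the most abundant in both csPIMT-/- libraries, with 3280.2 and 4307 per kb, against 954.5 and 1329 in the controls. *Angpt1* was the lowest of the 10 in every library except the 6-month control. Between the controls of 2 and 6 months, which are also the reference libraries of the genotype ratios, 1 gene was past 2-fold higher at 6 months (*Angpt1*, against 9.01% of all genes) and 0 were past 2-fold lower (4.65%, and 13.7% in either direction). Between the csPIMT-/- libraries, *Flt1* was 2.36-fold higher at 6 months (9.71% of genes were past 2-fold higher) and *Emcn* was at 0.435 of its 2-month level (8.2% past 2-fold lower).

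Ratios over all genes moved with the GC content of the transcript. Spearman's rho across genes was 0.58 at 2 months and 0.607 at 6 months, and across the 10 genes 0.527 and 0.867, given as descriptions because genes share libraries and are not independent. *Vwf* has 56.5% GC, *Kdr* 49.4%, *Tek* 47.1%, *Emcn* 40.7% and *Angpt1* 39.3%. After the trend on GC content was subtracted, the ratios of *Vwf* were 2.19 and 2.04, those of *Kdr* 0.455 and 0.57, and those of *Tek* 0.546 and 0.762. *Angpt1* came to 0.959 and 0.256, *Emcn* to 2.71 and 1.33 and *Tie1* to 0.6 and 0.95. With a trend on transcript length subtracted instead, *Vwf* came to 5.55 and 4.78. With the GC trend subtracted limma called 0 genes, with 3853 at an unadjusted p under 0.05. The edgeR quasi-likelihood test of the recovered reads, without that trend, called 2558 lower and 1682 higher, and DESeq2 2985 and 2215. Whether GC content or the genes' biology set these ratios was not tested.

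**Figure D4:**
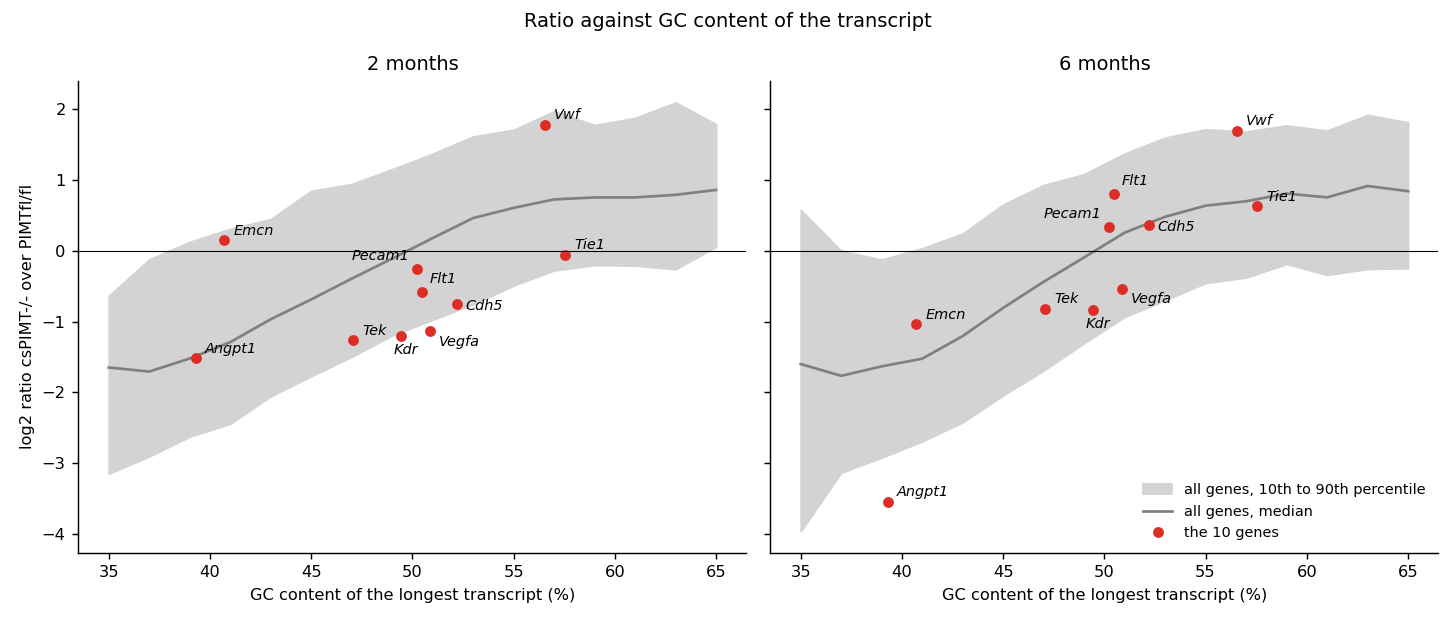
The log2 ratio of csPIMT-/- over PIMTfl/fl against the GC content (%) of the longest transcript, at 2 and 6 months. The line is the median and the band the 10th to 90th percentile of all genes in bins of GC content, and points are the 10 genes. *Vwf* is near the upper edge of the band at both ages, *Kdr* and *Vegfa* near the lower edge at 2 months, and *Angpt1* below it at 6 months.

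Other vascular genes were read from 12 lists with 147 genes in all, of which 25 were past 2-fold lower and 19 higher at 2 months, where 22.5% and 17.3% of all genes were. At 6 months 20 and 38 of 146 were, against 24.9% and 16.9% of all genes. limma called 18 of 146 lower and 16 higher, against 17.5% and 11.0% of all genes, shares that apply to every list count that follows. The list medians of the ratio were 0.854 and 1.16. Every gene named in the next paragraphs with ratios past 2-fold in the same direction at both ages passed limma, with adjusted p from 0.0157 to 0.0394. These are 25 genes, of which 22 kept their side of 1 at both ages and 11 stayed past 2-fold at both ages once the GC trend was subtracted, an alternative chosen after seeing the data.

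Of 22 other surface and junction genes, 4 were past 2-fold lower and 1 higher at 2 months, and 3 and 6 at 6 months. limma called 3 lower and 3 higher. *Eltd1*, an adhesion receptor of endothelial cells, had ratios of 0.161 and 0.367, *Cd93* of 0.295 and 0.418 and *Tmem100* of 0.273 and 0.34. *Plvap*, which forms the diaphragms of fenestrae, was higher, at 3.37 and 2.66. With the GC trend subtracted *Eltd1* came to 0.342 and 0.892, *Cd93* to 0.379 and 0.548, *Tmem100* to 0.496 and 0.703 and *Plvap* to 2.01 and 1.54. Of 15 transcription factors of endothelium, limma called 4 lower and 0 higher, against 17.5% and 11.0% of all genes. At 2 months 5 were past 2-fold lower and 1 higher, and at 6 months 4 and 2. Ratios above 1 were seen in 3 of the 15 at 2 months and in 8 at 6 months, with list medians of 0.619 and 1.05. *Ets1* had ratios of 0.276 and 0.309, *Erg*, an ETS factor that keeps endothelial identity, of 0.347 and 0.409, and *Meox2* of 0.243 and 0.161.

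Among 10 other genes of the VEGF and angiopoietin families, limma called 2 lower and 2 higher. *Pgf*, placental growth factor, rose with ratios of 2.23 and 2.4, and *Angpt4* with 9.8 and 3.21, from 13.8 and 40.5 normalized counts in the controls. *Nrp2*, a coreceptor, fell with ratios of 0.391 and 0.491 and *Nrp1* had 0.585 and 0.555, a fall of 0.81 on the log2 scale (adjusted p = 0.0422 by limma). With the GC trend subtracted the ratios of *Nrp1* turned to 1.28 and 1.38. *Vegfb* (1.23 and 1.09), *Vegfc* (0.619 and 0.757), *Vegfd*, listed as *Figf* (1.92 and 2.93), and *Angpt2* (0.409 and 0.914) did not pass limma. Of 11 Notch pathway genes 0 were called by limma in either direction.

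Of 24 other vessel growth signals, limma called 3 lower and 4 higher. *Apln*, the ligand of the apelin receptor, fell with ratios of 0.318 and 0.112, and *Calcrl*, the adrenomedullin receptor, with 0.25 and 0.28. With the GC trend subtracted the ratios were 0.261 and 0.0869 for *Apln* and 0.781 and 0.912 for *Calcrl*. *Slit3* rose with 3.12 and 2.46 and *Bmp6* with 2.07 and 3.66. In the hypoxia response list of 17 genes limma called 1 lower and 3 higher. *Hif1a*, the oxygen-sensing transcription factor that drives *Vegfa*, fell, with ratios of 0.371 and 0.42, while *Slc2a1* (6.12 and 4.42) and *Pfkfb3* (2.51 and 2.85), of glucose use, rose. With the GC trend subtracted the ratios of *Hif1a* were 0.853 and 1.09. *Epas1* had ratios of 0.646 and 1.05. *Vegfa* over *Hif1a* in reads was 1.22 and 1.03 in the controls and 1.49 and 1.69 in csPIMT-/- hearts. This pair is not corrected for GC content. With the GC trend subtracted the ratios of *Vegfa* were 0.416 and 0.6, below those of *Hif1a* at both ages.

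Of 6 genes of capillary fatty acid handling, 3 were past 2-fold lower and 0 higher at 2 months, and 2 and 1 at 6 months. By limma 2 were called lower and 0 higher, *Fabp4* (0.313 and 0.333) and *Cd36* (0.379 and 0.352), which cardiomyocytes also use. The GC trend took *Fabp4* to 0.633 and 0.771 and *Cd36* to 1.12 and 1.11. Of 10 genes of endothelial activation and haemostasis, limma called 2 lower and 3 higher. *Selp*, which encodes P-selectin, had ratios of 5.18 (3.43 to 8.04) and 4.27 (3.29 to 5.6), from 30 and 74 reads in the controls of 2 and 6 months. *Icam1* had ratios of 3.36 and 2.84, and *Tfpi*, which restrains the tissue factor pathway, of 0.344 and 0.213. With the GC trend subtracted *Selp* came to 4.63 and 3.65, *Icam1* to 2.23 and 1.86 and *Tfpi* to 0.911 and 0.62. Of 11 genes that restrain vessel growth, limma called 0 lower and 1 higher, *Serpinf1* (4.65 and 4.64). Of 11 pericyte and smooth muscle genes 1 was called lower, *Rgs5* of pericytes (0.404 and 0.387, or 0.947 and 1.02 with the GC trend subtracted). Of the lymphatic list, 0 of 5 genes were past 2-fold higher at 2 months and 3 of 5 at 6 months, against 17.3% and 16.9% of all genes, and limma called 0. Of the arterial and venous list, 2 of 5 were past 2-fold higher at 2 months and 2 of 4 at 6 months, against the same shares, and limma called 0.

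**Figure D5:**
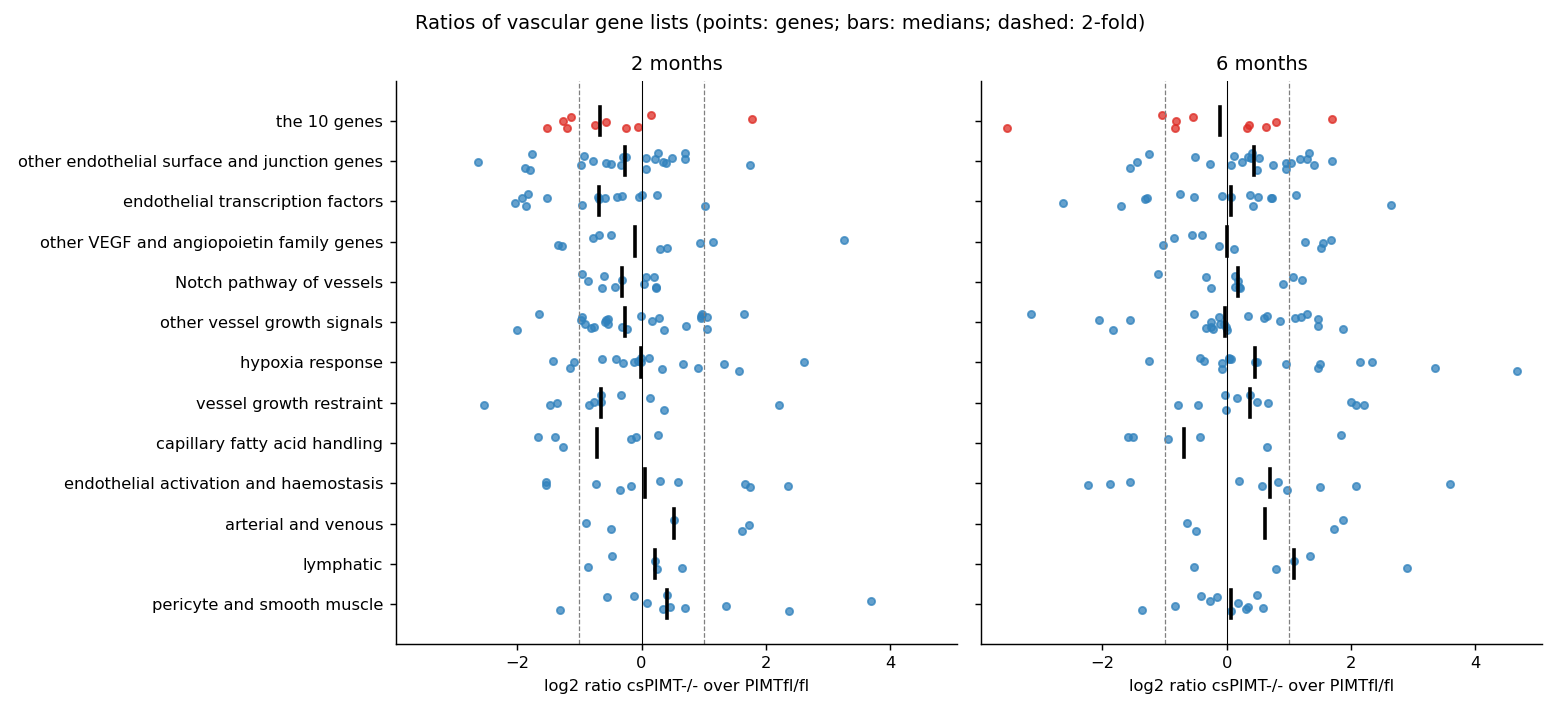
log2 ratio of csPIMT-/- over PIMTfl/fl for the 10 genes and 12 other vascular lists at 2 and 6 months; points are genes, bars medians and dashed lines 2-fold. The medians of the 10 genes lie at -0.67 and -0.10, and single genes of most lists lie on both sides of 0.

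The profile over the 4 libraries that was most like the mean of the 8 endothelial genes was that of *Parm1*, with a root mean square distance of 0.0138 on the log2 scale, then *Tpm3* (0.0243) and *Arap3* (0.0261). The ranking covered 10824 genes, and with 4 libraries such distances are a description only.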

How the data were processed

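RNA was extracted from whole hearts, enriched for mRNA with oligo-dT and sequenced in 4 libraries, each of 5 pooled hearts. The authors trimmed and filtered reads, aligned them with STAR (mm10 build), obtained gene counts from htseq-count (HTSeq 0.6.1p1, per the labels) with a UCSC annotation, and normalized these with DESeq2. The deposited values are a signal per gene symbol, a normalized count. In each library 100% of values were whole multiples of the smallest (largest deviation 4.89e-09 reads), so reads could be recovered.

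Ratios used the deposited normalized counts of 2 libraries, with at least 10 reads in 1 of them. The 95% interval covers counting error only. log2 ratios used a pseudocount of 0.5 reads. Genotype over both ages was tested with limma 3.58.1 on log2(value + 1), with age as a covariate and the variance trended on mean level, on genes with at least 10 reads in 2 libraries. Its residual degrees of freedom are 1 and the prior 4.08, so its p-values, given with Benjamini-Hochberg adjustment, rest on variance borrowed across genes. Alternatives were edgeR 4.0.16 and DESeq2 1.42.0 on recovered reads, other scalings, pseudocounts and filters, and trends on GC content and length. GC content and length came from the longest transcript in GENCODE M21. Genes that share reads with close paralogs are uncertain.

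The genes and lists were chosen with earlier results of these data known. Named genes were the 10, *Tgs1*, 8 set vascular genes, the 3 nearest profiles, and up to 4 genes a list past 2-fold the same way at both ages. A gene that this rule names is not reported here.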

Additional observations from a re-analysis of the deposited data

Results flagged for a closer look

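In 5 genes the ratio of csPIMT-/- over control lay on opposite sides of 1 at 2 and 6 months, with both counting intervals clear of 1. The ratios at 2 and 6 months were 0.839 and 1.26 for *Pecam1*, 0.592 and 1.28 for *Cdh5*, 0.669 and 1.74 for *Flt1*, 0.964 and 1.55 for *Tie1*, and 1.11 and 0.488 for *Emcn*. With the GC trend subtracted, *Cdh5* (0.482 and 0.989), *Tie1* (0.6 and 0.95) and *Emcn* (2.71 and 1.33) lay on the same side of 1 at both ages. *Pecam1* (0.816 and 1.18) and *Flt1* (0.636 and 1.58) did not. Against the control of the other age, *Cdh5* (0.972 and 0.781) and *Tie1* (1.43 and 1.05) lay on the same side, and *Pecam1* turned to 1.09 and 0.969. *Flt1* (0.738 and 1.58) and *Emcn* (1.12 and 0.484) kept their sides. The difference between the ages was not tested, as each age has 1 library a group.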

How the results depend on the processing

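Of the ratios at each age, 47 of 140 stayed within their counting interval under another scaling, trend or control, and 11 crossed 1. By setting, 3 crossed with the GC trend, 2 with the length trend, 4 with the control of the other age and 2 with both controls averaged, and 0 with another scaling. The one past 2-fold was *Emcn* at 6 months (1.33 with the GC trend subtracted). The number past 2-fold lower at 2 months was 2 with a length trend subtracted or the control of the other age, and the number higher was 2 with the GC trend. At 6 months the number lower was 1 with the GC trend, the length trend or the whole interval past 2-fold, and the number higher was 2 with the length trend. limma called 0 genes lower and 0 higher, and 0 of the 10 genes, with the GC trend or with no mean trend (3853 and 5940 at an unadjusted p under 0.05). Without 1 library at a time and with no age term, which assumes that the lone library varies like the other genotype's, it called 1276 genes lower and 274 higher without the 2-month control, 392 and 378 without the 6-month control, 1812 and 1132 without the 2-month csPIMT-/- library, and 2043 and 794 without that of 6 months, and of the 10 genes 0 to 2 lower and 1 higher. *Kdr* did not pass whichever library was left out. The log2 difference changed sign with the GC trend for *Pecam1* (-0.016), *Emcn* (0.93) and *Tie1* (-0.40), and without 1 library for *Pecam1* (-0.15 to 0.23, with -0.063 without the 6-month csPIMT-/- library), *Cdh5* (-0.56 to 0.16, with 0.00086 without the 2-month csPIMT-/- library), *Emcn* (-1.04 to 0.16) and *Flt1* (-0.51 to 0.73). The causes were not tested. No paired analysis of replicates was possible because each group had 1 pooled library. Age was a term of the fit, which sets each csPIMT-/- library against the control of its age.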
